A study of Mus musculus with 8 samples.

Results

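Messenger RNAs that fell with cordycepin in serum-stimulated NIH3T3 cells, and that serum itself left nearly level, are described here. They were chosen by measured values: a probe for a RefSeq mRNA had to be well above background on all 8 arrays, its mean on the arrays with cordycepin and serum had to lie at least 1 log2 unit below its mean on the arrays with serum alone, and the means with and without serum had to differ by less than 0.4 log2 units. Of 16727 mRNA probes well above background on all 8 arrays, 199 met these limits, and they represented 184 of 12545 measured genes. Since cordycepin and serum values picked the members, those values are given as a description and carry no test.

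NIH3T3 is an immortalised line of mouse embryonic fibroblasts. All plates were kept in medium with little newborn bovine serum for a day before treatment. The cordycepin plus serum group (3 arrays) received 20 µM cordycepin for 90 min and fresh serum for the last 30 min, the serum group (3 arrays) received the DMSO vehicle and serum for 30 min, and the no serum group (2 arrays) received the vehicle and no fresh serum. These times follow the labels. The study's figure legend instead has the 30 min of serum follow the 90 min of cordycepin. Cordycepin without serum was not analysed here, so each cordycepin difference below was measured in the presence of serum. The labels do not say whether the replicates came from separate cultures, so the errors and p-values measure the spread between these arrays, which may be technical. All values are log2 signals with the array's own 75th percentile set to 0, so that a shift common to nearly all transcripts drops out, and fewer cells cannot be told apart from less RNA per cell.

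Cordycepin is 3′-deoxyadenosine, an adenosine analogue that lacks the hydroxyl group needed to extend an RNA chain, and it is known to interfere with polyadenylation and growth factor signalling. According to the study, it does not end pre-mRNA chains at large in intact cells, but lowers the transcription of some mRNAs and of ribosomal RNA. An mRNA level falls within hours of a block in its production only where the mRNA is short-lived, and mRNAs of transcription factors and signalling regulators are known for short half-lives. Immediate early genes such as Fos are low in resting fibroblasts and rise within minutes of serum, whereas the mRNAs described here were already present in starved cells.

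The arrays were alike in quality. The 75th percentile of the signal was 350 to 802 units, 51.1 to 57.1% of probes were well above background, and the correlation between arrays of a group was 0.988 to 0.992 over all probes. The serum check genes rose in the serum group, from 2.66 log2 units for Ier2 to 7.91 for Fosb. All 7 fibroblast markers were well above background on every array, and none of 4 epithelial markers was. Of 3 immune markers, Cd68, which encodes a lysosomal protein of macrophages, was higher by 3.04 with cordycepin than with serum, Cd3e differed by 0.13, and Ptprc, the defining leukocyte marker, was not above background on all arrays. Of 3 endothelial markers, 2 were above background and all lay between −0.37 and 0.14 of the serum group.

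Promoter sequences are shown for the members with the largest drops among those with an entry in the promoter table, 2 with zinc finger in their name and 2 without, because the members fell together and their promoters were searched for shared motifs. Each is the stretch of 250 bases before the transcription start in RefSeq's GRCm38.p6 table, read 5′ to 3′ on the gene's strand, with CCAAT boxes and GGGCGG (the Sp1 motif) in capitals on either strand. The first is Zbtb9 (chr17:26972929-26973178, plus strand), and the others are Zfp458 (chr13:67268995-67269244, minus strand), Rgs3 (chr4:62559597-62559846, plus strand) and Papolg (chr11:23895271-23895520, minus strand). Tead4, with the largest drop of all, and Jrk had no entry in the table. Where a gene had several promoter entries, the first was used, here and in the motif shares below. Which start these cells use is not known.
Zbtb9: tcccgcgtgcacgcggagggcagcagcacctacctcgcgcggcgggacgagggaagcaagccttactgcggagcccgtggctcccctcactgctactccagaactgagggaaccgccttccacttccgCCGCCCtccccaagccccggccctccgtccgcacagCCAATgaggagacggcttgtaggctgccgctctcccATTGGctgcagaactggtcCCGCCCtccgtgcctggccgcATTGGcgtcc
Zfp458: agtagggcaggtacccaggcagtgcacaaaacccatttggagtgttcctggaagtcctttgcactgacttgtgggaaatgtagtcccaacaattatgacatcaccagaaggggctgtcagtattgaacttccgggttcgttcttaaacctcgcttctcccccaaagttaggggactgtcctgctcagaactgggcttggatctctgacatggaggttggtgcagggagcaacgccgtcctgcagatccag
Rgs3: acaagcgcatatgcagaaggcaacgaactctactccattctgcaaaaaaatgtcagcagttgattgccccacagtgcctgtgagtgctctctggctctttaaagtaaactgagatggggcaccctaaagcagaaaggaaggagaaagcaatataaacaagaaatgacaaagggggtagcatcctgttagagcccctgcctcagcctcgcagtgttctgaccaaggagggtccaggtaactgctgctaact
Papolg: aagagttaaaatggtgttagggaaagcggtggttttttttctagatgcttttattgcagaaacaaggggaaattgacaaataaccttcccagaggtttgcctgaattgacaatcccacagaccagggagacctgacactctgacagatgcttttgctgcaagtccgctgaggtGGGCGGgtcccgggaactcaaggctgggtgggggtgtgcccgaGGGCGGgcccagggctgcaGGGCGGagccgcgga

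The Zbtb9 stretch held 3 CCAAT boxes and 2 GGGCGG motifs and was 69.2% G and C. Papolg held 3 GGGCGG motifs and no CCAAT, and neither motif occurred in the stretches of Zfp458 and Rgs3, which were 52.4% and 48.4% G and C. No match says only that these letters are not in this window.

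Members differed in the size of the drop. Their cordycepin difference ran from −3.84 to −1.01 with a median of −1.29, a level 2.45-fold lower, whereas the median over all 16727 measured mRNA probes was 0.06. Of the 199 probes, 18 fell by 2 or more, 40 by 1.5 to 2 and 141 by less than 1.5. Standard errors of the difference, from limma, ran from 0.09 to 0.41 with a median of 0.16. The cordycepin arrays were more spread than the others, with a median SD over members of 0.22 (n = 3), against 0.13 on the serum arrays (n = 3) and 0.11 on the no serum arrays (n = 2).

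**Figure D1:**
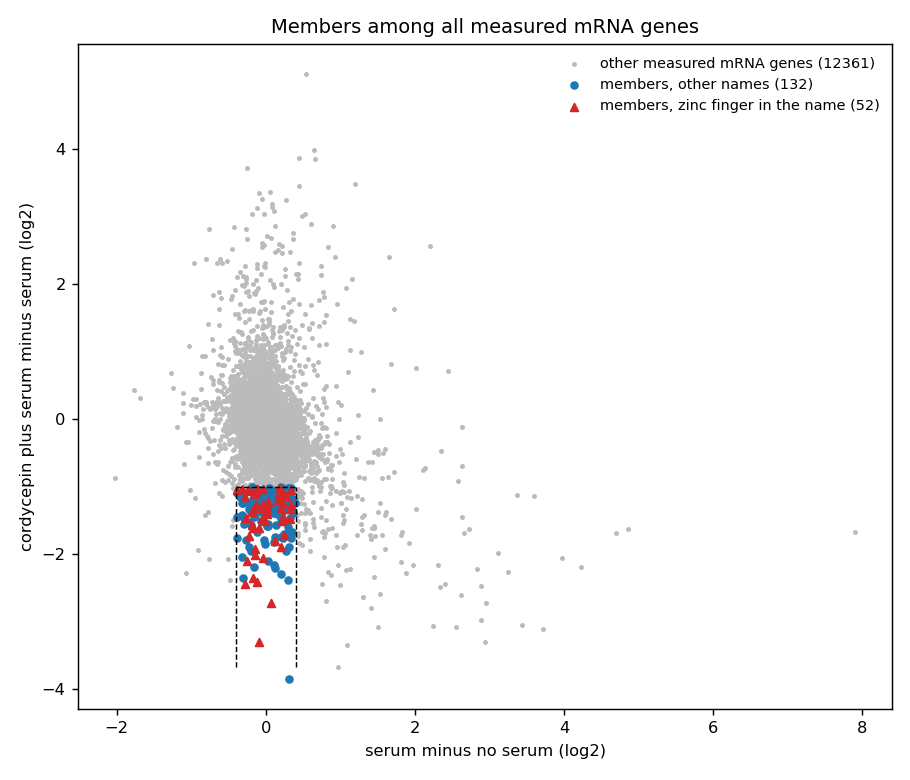
Difference between cordycepin plus serum and serum (vertical axis, log2) against the difference between serum and no serum (horizontal axis, log2) for each measured mRNA gene, by its brightest probe, or the brightest member probe for members. Dashed lines are the limits of the choice. The 52 members with zinc finger in their name and the 132 others fill the same box, and grey genes beyond the right limit are those that serum raised.

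Tead4, a TEAD factor that carries Hippo pathway signals to DNA, fell furthest. Its level was −1.11 and −0.81 without serum, −0.49, −0.63 and −0.79 with serum, and −4.55, −5.24 and −3.66 with cordycepin plus serum. The cordycepin arrays lay far below the other 5, and differed among themselves (SD 0.79, n = 3). The mean difference was −3.84 ± 0.35 (SE), a 14.4-fold lower level, measured by a probe at chr6:128177161-128177220 of build mm9, on the minus strand. The mean cordycepin value lay 0.80 log2 units above the lowest signal well above background on those arrays, near the lower end of the range.

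Zbtb9, a zinc finger protein with a BTB domain, followed. Its named probe (chr17:27113088-27113147, mm9) read 1.10 and 1.17 without serum, 1.00, 1.04 and 1.09 with serum, and −2.71, −2.04 and −2.005 with cordycepin. The groups with and without serum differed by −0.09, and the level with cordycepin fell by 3.30 ± 0.19 (SE), or 9.82-fold. A second Zbtb9 probe, 1311 bases upstream, fell by 1.59 and was also a member.

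Other numbered zinc finger genes were close behind. Zfp458 read −1.93 and −2.01 without serum, −1.89, −2.02 and −1.77 with serum, and −4.56, −4.80 and −4.49 with cordycepin. Zfp866 read 0.80 and 0.56 without serum, 0.37, 0.18 and 0.66 with serum, and −2.35, −2.07 and −1.70 with cordycepin. In both genes the cordycepin arrays lay below the other 5, which overlapped, and the differences were −2.72 ± 0.12 and −2.44 ± 0.19 (SE). The mean cordycepin value of Zfp458 lay 0.67 above the lowest signal well above background on those arrays. Further Zfp866 probes differed by only −0.56 and −0.31, the first of them brighter than the member probe. Zfp628 fell by 2.42 ± 0.11 (SE), from 0.87, 0.74 and 0.86 with serum to −1.70, −1.58 and −1.501 (SD 0.10, n = 3). A second and much brighter Zfp628 probe differed by 0.20. Zfp398 fell by 2.35, Zfp319 by 2.11 and Zfp27 by 2.06.

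Genes without zinc finger in their name among the 15 largest drops held different roles. Rgs3, which speeds GTP hydrolysis by G protein alpha subunits, read 4.08 and 3.89 without serum, 4.09, 4.23 and 4.53 with serum, and 1.68, 1.86 and 2.14 with cordycepin (difference −2.39 ± 0.16, SE). Papolg, a nuclear poly(A) polymerase that adds the poly(A) tails whose extension cordycepin interferes with, read 0.45 and 0.30 without serum, 0.50, 0.54 and 0.68 with serum, and −1.93, −1.88 and −1.36 with cordycepin. Its 3 cordycepin arrays lay well under the other 5, and the difference was −2.30 ± 0.16 (SE). Jrk, a DNA-binding protein derived from a transposase, fell by 2.35, and Hinfp, the histone H4 transcription factor, fell by 2.17. Kctd11, an adaptor of a cullin ubiquitin ligase, fell by 2.20 ± 0.16 (SE), from 2.06, 1.89 and 1.67 with serum to −0.51, −0.40 and −0.08. Map3k14, the kinase (NIK) at the head of non-canonical NF-κB signalling, read 2.55 and 2.56 without serum, 2.55, 2.65 and 2.57 with serum, and 0.17, 0.42 and 0.87 with cordycepin. A second Map3k14 probe differed by −0.80.

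**Figure D2:**
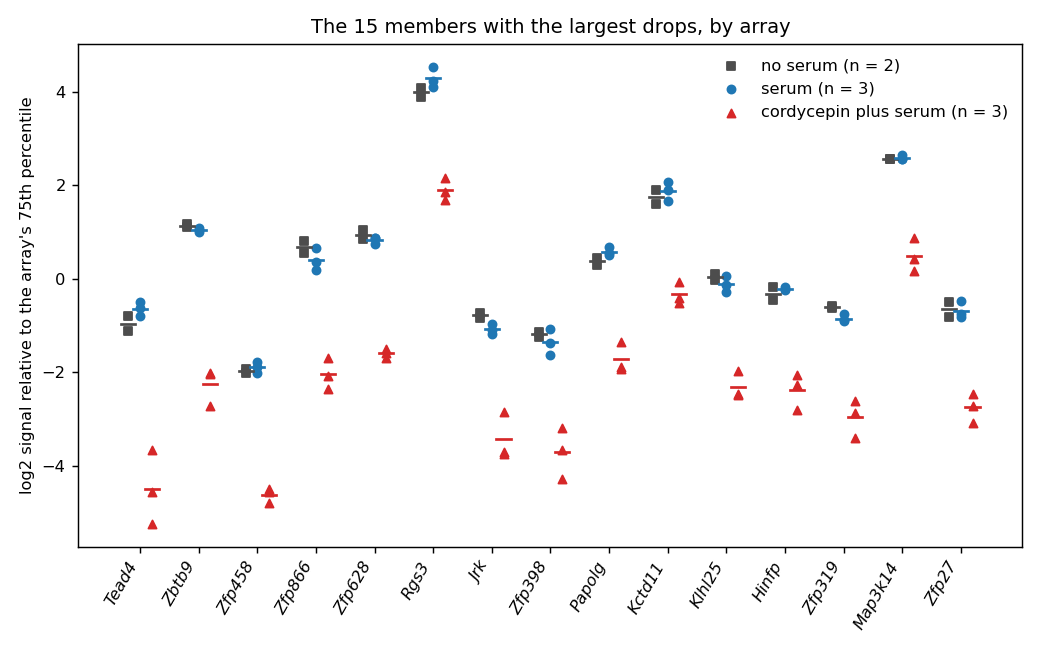
Log2 signal relative to the array's 75th percentile (vertical axis) on each of the 8 arrays for the 15 member genes with the largest drops. Points are arrays and bars are group means. In all 15 genes the no serum (n = 2) and serum (n = 3) arrays lie together and the 3 cordycepin arrays lie below them, most widely spread for Tead4.

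Across the members, 198 of 199 probes had all 3 cordycepin arrays below all 5 other arrays, a separation found in 10.4% of measured mRNA probes. The exception was a probe of Zfp111, at −3.70, −3.76 and −2.14 with cordycepin and between −2.20 and −2.03 on the other arrays, while the other Zfp111 probe fell by 1.52 with no overlap. In the limma fit over 30853 probes, 197 members were called lower with cordycepin plus serum than with serum (adjusted p under 0.05 and at least 1 log2 unit), where 2.87% of all probes tested were called lower. That Zfp111 probe and Zfp58 were not called. Zfp58 was at −3.27, −1.72 and −3.47 with serum, the second array standing apart, and at −4.19, −4.15 and −4.09 with cordycepin. The size of its drop thus rests in part on that serum array, and a brighter Zfp58 probe differed by 0.12. Against no serum, 157 were called lower, where the background was 2.99%, and the median difference was −1.28. The members' choice fixes nearly all of these counts, and nothing is read from them.

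The serum difference of the members was −0.39 to 0.39 with a median of 0.03, and it was above 0 for 109 probes and below 0 for 90. Limma called 0 of the 199 as changed by serum at an adjusted p under 0.05, and 13 had an unadjusted p under that value. Of all probes tested, 2.27% were called as changed by serum. The precision was limited by 2 arrays without serum. The 95% interval of the serum difference stayed within 1 log2 unit for 194 members and within 0.4 for 17, so for most members a serum effect somewhat larger than the limit was within the error.

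At the drop limit, the members just inside were Fgd4 (−1.02), Esco1 (−1.01) and Calhm2 (−1.01), and the probes just outside were those of Rgs4 (−0.997), Tlk2 (−0.995) and Ss18l1 (−0.994). At the serum limit, Ap5b1 (−0.38), Trmt12 (−0.39) and E2f8 (0.39) lay inside and Adora2b (0.40), Zswim4 (0.41) and Socs3 (0.41) lay outside. Another Tlk2 probe was a member. With their signs set aside, values on both sides of each limit differed by less than the smallest standard error among the members.

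Among the words searched in the gene descriptions, which the choice did not use, zinc finger was the most common one in the members. It was found in 52 of 184 member genes (28.3%) and in 3.77% of the other measured genes. Zinc finger proteins of the C2H2 type are the largest family of DNA-binding proteins in mammals, and many carry a KRAB domain that recruits repressors of transposable elements. Of 518 measured genes with zinc finger of any type in the description, 10.0% were members, against 1.10% of 12027 genes with other names. This class was picked after the members had been seen, and no test was made. It goes by the description alone, so zinc finger proteins described in other words count among the others.

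Within the class, 38 member genes were numbered zinc finger proteins, of 304 measured. A further 7 had zinc finger and BTB in the name (Zbtb9, Zbtb3, Zbtb1, Zbtb49, Zbtb43, Zbtb5 and Zbtb7b), of 35 measured. Zbtb3 read −0.25 and −0.55 without serum, −0.47, −0.72 and −0.58 with serum, and −2.65, −1.89 and −1.95 with cordycepin. Snai1, the Snail repressor of E-cadherin, read 4.40 and 4.11 without serum, 4.27, 4.28 and 3.76 with serum, and 1.92, 2.49 and 1.86 with cordycepin. Its drop was 2.01 ± 0.22 (SE) with no overlap between the cordycepin and the other arrays. Of a different zinc finger type, Zfp36l2, a CCCH protein that binds AU-rich elements and promotes mRNA decay, read 6.82 and 6.88 without serum, 6.79, 6.73 and 6.56 with serum, and 5.51, 5.40 and 5.20 with cordycepin. The family's immediate early relative Zfp36 rose by 3.97 with serum and so was no member.

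Lower values were also found among zinc finger genes that did not meet the limits. By their brightest probe, 518 zinc finger genes had a median cordycepin difference of −0.15, against 0.07 for the 12027 others, and 65.6% of them lay below 0, against 39.1%. The lower quartile was −0.54 among zinc finger genes and −0.13 among the others. The upper ends were closer, with upper quartiles at 0.09 and 0.21. A drop of 1 or more was found in 49 zinc finger genes and a rise of 1 or more in 4. The order of the class medians was the same after normexp correction (−0.11 and 0.07), quantile normalisation (−0.21 and 0.01) and centring on spike-in probes (−0.16 and 0.06). Among the 177 genes that fell by 1 or more but changed by 0.4 or more with serum, 11 (6.21%) had zinc finger in their name. That set shares its cordycepin and serum arrays with the members, and 3 genes had probes in both.

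**Figure D3:**
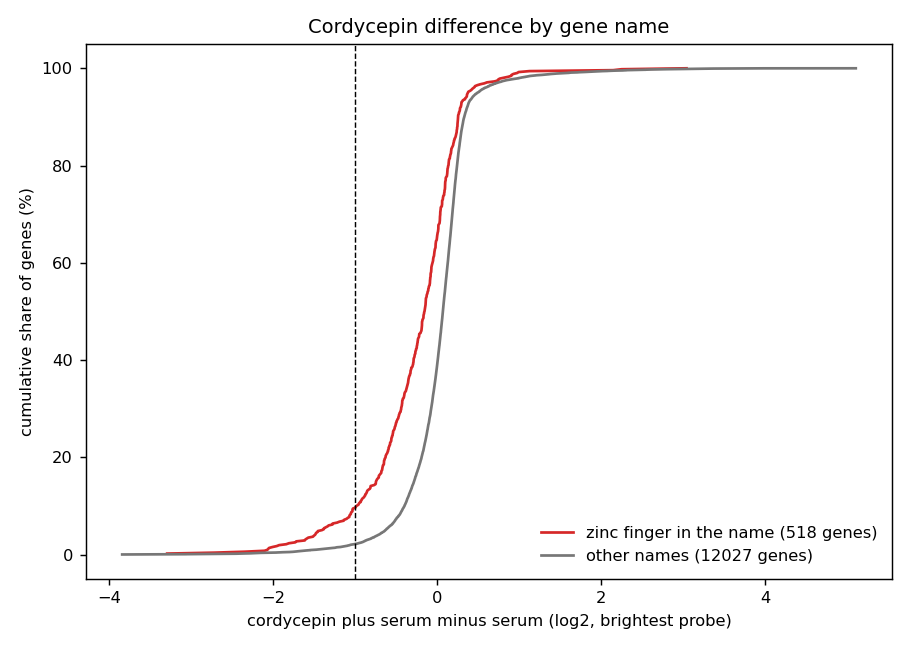
Cumulative share of genes (vertical axis, %) by the difference between cordycepin plus serum and serum (horizontal axis, log2, brightest probe), for 518 genes with zinc finger in the name and 12027 others. The zinc finger curve lies to the left of the other, with medians of −0.15 and 0.07, and the dashed line marks a drop of 1. Both curves include the members, which were chosen for their drop.

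Some member genes were neighbours on a chromosome. Zfp809 and Zfp599 had probes 8203 bases apart on chromosome 9, Zfp398 and Zfp282 38614 bases apart on chromosome 6, and Zfp955a and Zfp955b 64521 bases apart on chromosome 17. Zfp955a read 2.48 and 2.66 without serum, 2.37, 2.52 and 2.26 with serum, and 0.67, 1.22 and 1.10 with cordycepin, and Zfp955b fell by nearly the same amount (−1.38 and −1.46). Related zinc finger genes can share array signal through similar sequence, which was not tested. Neighbours were not confined to zinc finger genes: Snai1 and Cebpb, a bZIP transcription factor, had probes 147696 bases apart on chromosome 2.

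Among members without zinc finger in their name, 53 genes were sorted by known role after their values had been seen. The largest of these groups, 20 genes, held other transcription factors and parts of the transcription machinery, with a median difference of −1.24. Foxc2, a forkhead factor of mesenchymal development, read 1.13 and 0.86 without serum, 0.74, 0.93 and 0.71 with serum, and −1.39, −1.04 and −1.08 with cordycepin. Hes1, the Notch target repressor, was noisier, at −1.60, −1.76 and −2.54 with serum and −3.34, −3.13 and −3.69 with cordycepin (−1.42 ± 0.30, SE). Runx1 differed by −1.38 and the T-box factor Tbx18 by −1.24. Hic1, a repressor silenced by methylation in cancers, read 5.57, 5.42 and 5.39 with serum and 3.73, 4.08 and 3.87 with cordycepin. Tbp, the TATA-binding protein used by all nuclear RNA polymerases, read 1.55, 1.67 and 1.31 with serum and 0.08, 0.62 and 0.59 with cordycepin. Also in this group were Brf2 and Polr3d, which serve RNA polymerase III, the Mediator subunit Med26, and Cdk12 (−1.20 ± 0.12, SE), a kinase of the RNA polymerase II tail.

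A group of 7 genes concerned tRNA, with a median difference of −1.47. Mocs3, which activates sulphur for tRNA thiolation and molybdenum cofactor synthesis, read 1.38 and 1.48 without serum, 1.19, 1.17 and 1.25 with serum, and −1.15, −0.61 and −0.32 with cordycepin. Alkbh1, a demethylase of tRNA, read −0.07 and −0.22 without serum, 0.06, 0.22 and 0.17 with serum, and −1.46, −1.37 and −1.49 with cordycepin (SD 0.06, n = 3). The tRNA methyltransferase subunit Trmt61a differed by −1.47, Trmt12, of wybutosine synthesis, by −1.46, the p53-regulating kinase gene Trp53rkb, related to the KEOPS complex, by −1.53, the wobble deaminase subunit Adat3 by −1.24 and the mitochondrial prolyl-tRNA synthetase Pars2 by −1.16. By the word tRNA in the description, 4 of 87 measured genes were members. The word was found in 2.17% of member genes and in 0.67% of other genes. The median of all 87 was 0.07, so by the median, genes named for tRNA were not lower as a class.

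Signalling proteins formed a group of 12 with a median of −1.56. Besides Map3k14, it held Traf2, an adaptor of TNF receptors that restrains NIK, at 3.60 and 4.05 without serum, 3.69, 3.81 and 3.63 with serum, and 2.09, 1.98 and 2.06 with cordycepin. A second Traf2 probe, 845 bases downstream, differed by only −0.09. Map3k11, a kinase upstream of JNK, differed by −1.70, and Pik3cb, the catalytic p110-beta subunit of PI 3-kinase, by −1.57. Dusp4, a phosphatase of MAP kinases, read 0.06, 0.73 and −0.60 with serum, −0.63 and 0.13 without, and −1.71, −1.74 and −2.07 with cordycepin. The cordycepin arrays lay below all others, the groups with and without serum overlapped, and the serum arrays spread widely (SD 0.66, n = 3). The Wnt receptors Fzd8 and Fzd5 differed by −1.25 and −1.20.

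Ubiquitin ligases, their adaptors and a deubiquitinase made up 10 members with a median of −1.52, among them the BTB-kelch adaptor Klhl25 (−2.19), Fbxo46 (−1.58) and Rnf169 (−1.45), which binds ubiquitin at DNA breaks. A group of 4 secreted factors had a median of −1.23. Ccl7, a monocyte chemokine, read 4.31 and 4.31 without serum, 4.51, 4.45 and 4.35 with serum, and 2.95, 3.19 and 3.07 with cordycepin. Fgf7, keratinocyte growth factor, differed by −1.06 ± 0.09 (SE). Angptl4, an inhibitor of lipoprotein lipase, read 5.81, 5.49 and 5.13 with serum and 4.31, 4.60 and 3.84 with cordycepin. Cdc42ep2, an effector of the GTPase Cdc42, read 5.74 and 5.56 without serum, 5.64, 5.74 and 5.67 with serum, and 3.61, 4.23 and 4.45 with cordycepin. Fgf21 was the only member whose mean cordycepin value lay within 0.5 log2 units of the lowest signal well above background on the same arrays. Its difference was −1.22.

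Whole gene lists placed these members in context. By the brightest probe of each gene, 2.45% of all measured mRNA genes fell by 1 or more. Developmental transcription factors had 6 of 73 measured genes at a drop of 1 or more (8.22%), 2 at a rise, a median of −0.22, and 4 members (Tead4, Foxc2, Runx1 and Tbx18). Cullin adaptors and ubiquitin ligases had 7 of 105 (6.67%) and 5 members, and the TGF-beta and BMP pathway had 3 of 40 (7.50%) and 1 member, Smad3. The Notch and Hedgehog pathways had 1 of 24, the member Hes1. Wnt receptors and regulators had 2 of 50, both members, and splicing kinases, SR proteins and cyclins L had 2 of 38, the members Cdk12 and Rbm15. Runx1, Smad3, Klhl25 and Rnf41 were members through another probe than their brightest, which differed by −0.81, −0.50, −0.02 and −0.38, so they are not among the genes counted at a drop of 1 or more. Of the 108 measured chromatin regulators on the list, 3 (2.78%) fell by 1 or more and none was a member, a share near that of all genes. The list is not complete. Members outside it were the arginine methyltransferase gene Prmt6 (−2.05) and the enhancer of polycomb homolog Epc1 (−1.82 and −1.02 on member probes, 0.18 on another).

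Other lists held no member. None of 77 cytosolic ribosomal protein genes fell or rose by 1 or more, and all lay between 0.11 and 0.36, with a median of 0.25. None of 40 extracellular matrix and fibroblast structural genes moved by 1 or more, with a median of 0.11. Insulin receptor substrates and receptor tyrosine kinase adaptors had no gene of 36 at a drop of 1 and 1 at a rise, of 2.82. By words in the description, no member was found among 220 genes named solute carrier, 171 named ribosomal protein, 44 named proteasome or 83 named homeobox, of which 3 homeobox genes fell by 1 or more. Genes described in other words are not counted, such as the member Slc66a1, which stands on the array as Pqlc2. At the overall share of members, lists of this size hold few members or none, and nothing is read from these counts. The word kinase was found in 9 member genes (4.89%) and in 4.21% of other genes.

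Several member genes were measured by more than 1 probe. For 117 of the 184 genes the member probe was the only measured mRNA probe. The other 67 genes had 85 further probes besides the one with the largest drop, and these had a median cordycepin difference of −0.51, against −1.32 for the probes with the largest drops. Of the 85, 69 lay below 0, 18 fell by 1 or more and 1 rose by 1 or more. Since the largest drop was picked out of each gene, a smaller drop on the other probes is partly given by the choice.

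Some pairs differed widely. Zfp867 had a member probe that fell by 1.34 and a probe 580 bases downstream that was higher by 2.20 with cordycepin, at −3.50, −4.26 and −3.91 with serum and −1.54, −1.78 and −1.76 with cordycepin. Zfp628 had a second probe, 2388 bases upstream, that differed by 0.20, and Klhl25 a second probe that differed by −0.02 (1.72, 1.87 and 1.64 with serum, 1.76, 1.62 and 1.80 with cordycepin). In 33 genes a further probe differed by over 1 from that with the largest drop. There were 38 such probes, of which 17 lay downstream, 15 upstream and 6 had no position to compare, and neither side held most of them. What sets these probes apart, such as other transcript ends or signal from other genes, was not tested.

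**Figure D4:**
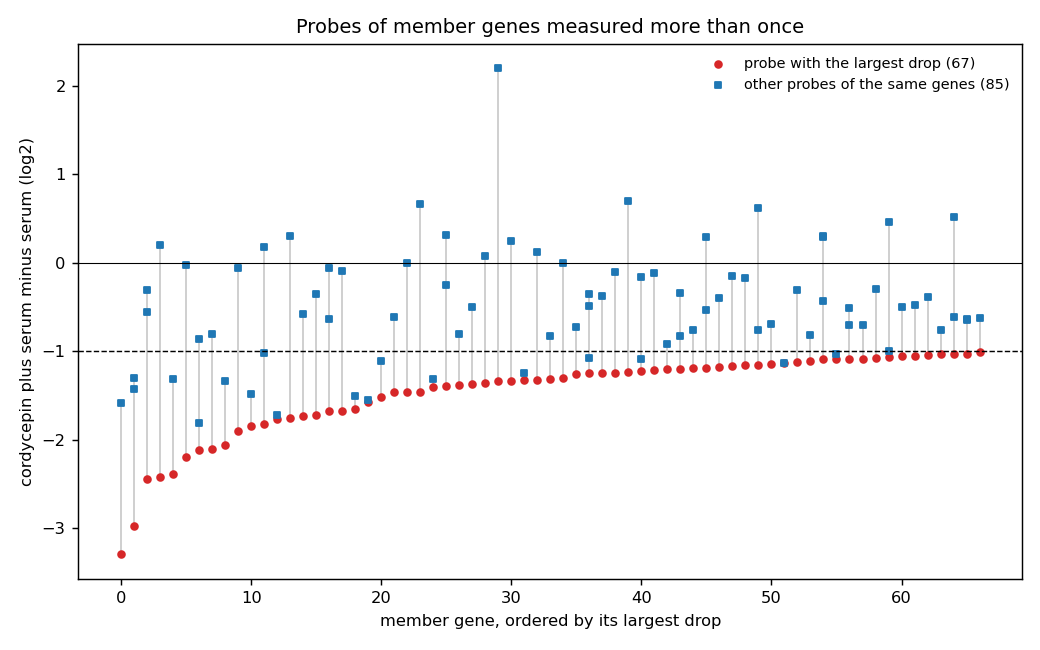
Difference between cordycepin plus serum and serum (vertical axis, log2) for all measured mRNA probes of the 67 member genes with more than 1 probe, ordered by the largest drop (horizontal axis). Red circles are the probes with the largest drop and blue squares the 85 others, of which 69 lie below 0 and the highest, of Zfp867, lies at 2.20.

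Long intergenic non-coding RNA (lincRNA) probes of the array lie in stretches between genes, several to a stretch, so probes of a stretch are not independent. Within 50 kb downstream of the member probe and on the same strand, 18 members had 73 lincRNA probes that entered the fit. A probe entered if it was well above background on all arrays of any 1 group. One silent without cordycepin thus entered only through high cordycepin arrays, so the filter favours rises in every lincRNA count given here. Of these, 43 (58.9%) were higher by 1 or more with cordycepin, none was lower by that much, and the median was 1.87. The same count for all measured mRNA genes was 703 of 2148 probes (32.7%), with a median of 0.42. Counted by gene, 9 of 18 members had a median of 1 or more downstream, against 29.4% of 642 genes. The difference was not tested.

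At Sertad4, a SERTA domain gene, the mRNA fell by 1.24, from 3.67, 3.78 and 3.26 with serum to 2.29, 2.39 and 2.31, while 3 lincRNA probes about 12 kb downstream were higher by 4.47 to 4.62. At Plekho2 the mRNA fell by 1.77 and 6 of 8 downstream probes were higher by 1 or more, up to 4.31. The ubiquitin ligase adaptor gene Fem1c fell by 1.76, with 7 of 7 probes higher, and Cnksr3, a scaffold gene of Ras signalling, fell by 1.48 with 9 of 9. At Zfp955b, in contrast, 3 probes were between −0.55 and −0.03, and at Zfp709 8 probes were between −0.53 and 0.14. On the other sides of the members, 3 of 34 downstream probes on the opposite strand, 1 of 47 upstream on the same strand and 19 of 51 upstream on the opposite strand (37.3%) were higher by 1 or more. Over all measured mRNA genes these shares were 17.5%, 18.6% and 19.0%. Of the 34 downstream probes on the opposite strand, 4 (11.8%) were lower by 1 or more, against 2.36% over all genes. Whether the lincRNA signal is continuous with the member's transcript was not tested.

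**Figure D5:**
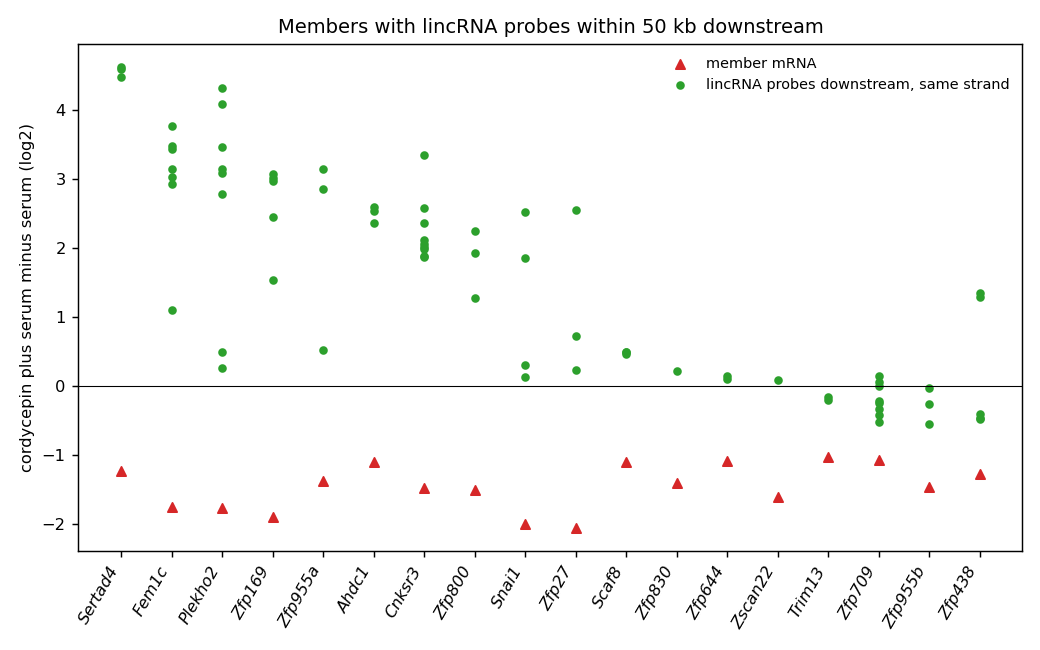
Difference between cordycepin plus serum and serum (vertical axis, log2) for 18 members (red triangles) and for the lincRNA probes within 50 kb downstream on the same strand (green circles), ordered by the median of the latter. At 9 genes, from Sertad4 to Snai1, that median is 1 or more while the mRNA lies below −1.

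Members and other measured genes were closer in length and sequence. The span of member genes in GRCm38.p6 had a median of 17.8 kb, against 22.2 kb for other measured genes, and ran from 1.52 to 478 kb. Of genes under 5 kb, 1.94% were members, and the share went down with each step in length to 1.00% of genes of 100 kb or more. Without zinc finger genes the shares were 1.55, 1.06, 0.99, 1.19 and 0.89% from the shortest to the longest class, with no fall at each step. The share of all genes that fell by 1 or more went from 4.60% to 1.27% over the same steps.

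The promoter table held 149 member genes and 9920 other measured genes. Over 250 bases before and 50 after the start, GGGCGG was found in 69.8% of member promoters and 62.7% of the others, CCAAT in 45.0% and 39.1%, TGACG (the core of the CREB motif) in 33.6% and 31.2%, and CCGGAAG (the ETS motif) in 20.1% and 17.9%, counting either strand. TATAAA was in 8.05% and 7.71%, CACGTG (the E-box) in 8.05% and 10.1%, and TGACTCA (the AP-1 motif) in 2.01% and 3.59%. GGAATG, the core of the TEAD motif, was in 14.1% and 11.9%. Of all 27025 promoters in the table, 35.9% held GGGCGG, 37.9% CCAAT, 21.0% TGACG, 9.12% CCGGAAG, 14.2% TATAAA, 7.24% CACGTG, 5.17% TGACTCA and 14.6% GGAATG. The members' promoters had a median of 61.7% G and C, against 60.7% for other measured genes. Within the probes themselves, ATTTA, the core of the AU-rich element, was found in 9.05% for members and 8.26% for other measured mRNAs, and both sets had a median of 41.7% G and C.

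Each row of the slide held arrays of all groups, and the median difference was −1.37 in the first row and −1.22 in the second. Since the members were chosen on these same arrays, nothing is read from these values. Background correction by normexp in place of the processed signal left 127 members, 120 of them shared, and a median drop of 1.07 for the 199. With arrays centred on spike-in probes, all 199 still fell by 1 or more, with a median of −1.30, but 114 of the 199 met both limits, 54 were called lower against serum, and the zinc finger share of the members chosen on that scale was 17.5%.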

How the data were processed

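RNA from 8 samples of NIH3T3 cells was measured on 1-colour Agilent mouse arrays. The deposited files hold the intensity of each spot, which the authors extracted with Feature Extraction 10.7.3.1, per the file headers, with flags for outliers and for signal well above background. Probe positions refer to mm9. The study's methods name limma and give no normalisation. Each array held 59305 non-control spots of 55681 probes. Here log2 of the processed signal minus the array's 75th percentile was taken, outlier spots were left out and spots of a probe were averaged. Group means were compared with limma 3.58.1 in R 4.3.3 without covariates, over the 30853 probes that exceeded background clearly on all arrays of 1 group or more. Two-sided p-values received the Benjamini-Hochberg adjustment. The calculation was tested on simulated data. All arrays lay on 1 slide. Gene symbols came from RefSeq accessions (GRCm38.p6), which matched for all 199 members and 16622 of 16727 measured mRNA probes. The members and gene lists were chosen with earlier results of these data known. Named genes were the 15 largest drops, up to 4 members a list, those at the limits, those with the most different second probe (3) and the brightest (3), with genes added by role after their values were seen; where a gene had several member probes the brightest was used. Alternatives were normexp correction (offset 50), quantile normalisation, centring on spike-in probes, outlier spots kept, a block for replicate or slide row, no filter on dim probes, other limits, and leaving out each array. Protein sequences were not analysed here, and results for a member gene and a gene list are not reported here.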

Additional observations from a re-analysis of the deposited data

How the results depend on the processing

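Normexp correction gave 127 members, a median difference of −1.07 over the 199, and 121 of the 199 called lower against serum and 99 against no serum. Centring on spike-in probes gave 54 and 78 calls and 175 members, while the median difference was −1.30 and all 199 still fell by 1 or more. This centring moved the median serum difference of all measured mRNA probes to −0.37, and otherwise the cause was not tested. The number of members was 370 at a drop of at least 0.8 and 58 at a drop of at least 1.5, by construction. It was 168 and 228 at serum limits of 0.3 and 0.5, and 273 after quantile normalisation. Leaving out each array in turn gave 177 to 236 members, medians of −1.36 to −1.26, 162 to 195 calls against serum and 127 to 159 against no serum. The number of members called as changed by serum was 0 under every alternative fit, which the other limits of the choice do not enter. With a replicate block, 195 and 156 members were called lower. The numbers do not pair the arrays, since deviations of same-numbered arrays correlated between −0.18 and 0.23. The slide row as a block gave 188 and 153. The zinc finger share of member genes was 25 to 33.3% under the alternatives that choose the members anew (the blocks and the filter do not), except a drop of at least 0.8 (21.9%) and centring on spike-in probes (17.5%). All 199 members kept a negative cordycepin difference under the scalings tried. Precision was limited by the number of arrays, 2 without serum and 3 in each other group, and the signal of 12 members with cordycepin lay within 1 log2 unit of the lowest signal well above background. Tead4 and Zfp458 were among these 12.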
